A study of Sus scrofa with 48 samples.

Results

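AMP-activated protein kinase (AMPK) and the acetyl-CoA carboxylases were followed in the longissimus muscle of 48 barrows through 10 genes, namely the carboxylase genes ACACA and ACACB, the malonyl-CoA decarboxylase gene MLYCD, and the AMPK subunit genes PRKAA1, PRKAA2, PRKAB1, PRKAB2, PRKAG1, PRKAG2 and PRKAG3. Probes were taken by the gene name, or the symbol in the description, that the array files give, and 1 probe was added because the study lists it for ACACB among its predictors of feed conversion ratio (FCR). This gave 22 probes for 9 of the 10 genes, out of 60305 distinct probes and 10881 genes with a symbol on the array, and all 22 were well above background on at least 12 arrays. No probe met the naming rule for PRKAG2. The pigs were purebred Large White and came from a pair of lines bred apart for high or low residual feed intake (RFI), the difference between the feed an animal eats and the feed predicted from its production and maintenance needs. The 4 groups of 12 pigs were low RFI or high RFI pigs with free access to feed, which for one of each pair of groups held much fat and fiber (HF diet) and for the other little of either (LF diet). Each pig had its own one-colour array, and the age of the pigs is not given in the labels.

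AMPK is a kinase made of a catalytic alpha, a scaffold beta and a nucleotide-binding gamma subunit, and it is switched on in muscle when AMP and ADP rise relative to ATP. Among its best known substrates are the acetyl-CoA carboxylases, which make malonyl-CoA and are inhibited when phosphorylated. Malonyl-CoA made by ACACB at the mitochondrial surface blocks carnitine palmitoyltransferase 1 and so limits fatty acid oxidation, whereas malonyl-CoA made by ACACA feeds fatty acid synthesis, and MLYCD removes malonyl-CoA. The arrays measured mRNA, not the activity or phosphorylation of these enzymes, and in whole muscle fewer cells of a type and less RNA per cell cannot be told apart.

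The probes were oligonucleotides of 60 bases. Probes are shown for the 3 genes with a probe that differed between the lines. For ACACB only the probe listed for FCR differed. The bases are as given in the array files and read 5′ to 3′. They are shown because probes of the same gene did not always give the same answer. The letters AATAAA, the usual polyadenylation signal near the end of an mRNA, are in capitals. The ACACB probes were the following, the first 3 whole and the probe listed for FCR by its bases 31 to 60.
A_72_P488413: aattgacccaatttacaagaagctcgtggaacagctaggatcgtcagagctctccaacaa
A_72_P413058: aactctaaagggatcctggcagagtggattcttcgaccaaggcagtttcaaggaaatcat
A_72_P582352: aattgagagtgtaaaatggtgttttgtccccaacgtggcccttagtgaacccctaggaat
A_72_P244982: tatatatattcagtcgatgcttAATAAAtg

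The listed probe, A_72_P244982, held AATAAA at its bases 53 to 58, and none of the other 3 ACACB probes held it. AATAAA was present in 10.3% of all probes in the orientation printed, and in 14.1% on either strand. Of the 22 probes followed here 4 (18.2%) held it, namely A_72_P079111 and O3684 of ACACA, A_72_P223232 of PRKAG3 and the listed probe. Whether these letters go with the line differences was not tested. On the array the listed probe was named by a pig expressed sequence tag and not by a gene. Its link to ACACB thus rests on the list of the study. The PRKAB1 probes are shown by bases 31 to 60.
A_72_P444265: tttgctagtgaaaatctgggaagcgggaat
O9999: gtgccaggaagacatcctttggaccaaagt
A_72_P237592: attactgtcactttgatgtacaggtttcaa

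Of the PRKAG3 probes, A_72_P223232, which held AATAAA, is shown by bases 17 to 46 and O9535 by bases 31 to 60.
A_72_P223232: gaagccagttAATAAAccttggttggatgg
O9535: gggttttctgaaccagaggcactaggatta

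No pair of probes of a gene overlapped, and the longest run of bases shared by such a pair was 11. Their places on a pig genome build are not given here.

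Between the lines, ACACB at its listed probe and PRKAB1 were higher in high RFI pigs, PRKAG3 was lower, and no probe of ACACA, MLYCD, PRKAA1, PRKAA2, PRKAB2 or PRKAG1 passed the test. Values are the log2 of the spot signal relative to the mean of the tested probes of the same array, and differences are high RFI minus low RFI pigs, averaged over the diets. They were tested with limma across 42125 probes with Benjamini-Hochberg adjustment, and a probe was called below an adjusted p of 0.05. Of the 22 probes 6 were called, 4 higher and 2 lower, against 16.4% of all tested probes called, 6.57% higher and 9.85% lower. Probes of 1 gene are not independent of each other, so the share of called probes among the 22 was not tested. The listed ACACB probe, 1 of the 6 called, entered the 22 because the study chose it on pigs that include those used here. Its call was thus not independent of its entry, so the 6 of 22 do not show an excess over all tested probes. The median line difference was 0.02 over the 22 probes and -0.03 over all tested probes, and the median size of the difference, whatever its sign, was 0.08 against 0.10.

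**Figure D1:**
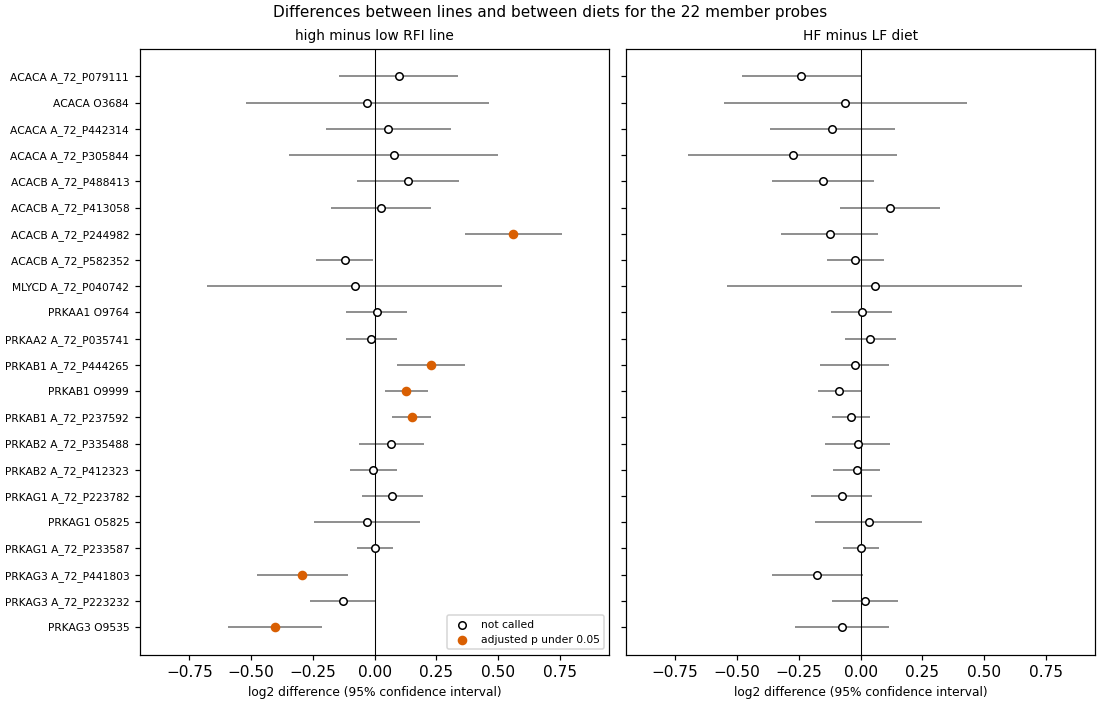
Line difference (left, high minus low RFI) and diet difference (right, HF minus LF diet) on the log2 scale for the 22 probes, with 95% confidence intervals from limma. Filled points have an adjusted p below 0.05: 6 probes between the lines, of ACACB (the listed probe only), PRKAB1 and PRKAG3, and none between the diets.

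The listed ACACB probe gave the largest difference of the 22. Under the HF diet the level ran from -2.56 to -1.87 in low RFI pigs, with a median of -2.30, and from -2.72 to -1.25 in high RFI pigs, with a median of -1.71. On the LF diet the range was -2.66 to -1.75 (median -2.25) in low RFI pigs and -2.23 to -1.0 (median -1.62) in high RFI pigs. The lines overlapped, but 23 of the 24 high RFI pigs lay above the mean of the low RFI pigs, and 14 of the 24 lay above the highest low RFI pig. The line difference was 0.56 (SE 0.10, 95% confidence interval 0.36 to 0.76, limma adjusted p = 9.39e-05), a 1.48-fold higher signal. It was 0.47 on the HF diet (adjusted p = 0.034) and 0.65 on the LF diet (adjusted p = 0.0049), the only member called within a diet in this fit, where 6.39% of all probes were called on the HF diet (2.36% higher, 4.03% lower) and 2.47% on the LF diet (1.13% higher, 1.34% lower). With normexp background correction the line difference was 0.30 (adjusted p = 0.00025), and it was 0.38 with the deposited table. Pigs are numbered here within each group in the order of the samples, not by the numbers in their labels. Without the brightest array, that of high RFI pig 10 on the HF diet, the difference on the HF diet was 0.44 and no longer called (adjusted p = 0.0502). That call was also lost with normexp (0.22, adjusted p = 0.082), with the deposited table (0.28, adjusted p = 0.075), without a filter on dim probes (0.46, adjusted p = 0.084) and in the variance analysis of the methods (0.47, adjusted p = 0.051). The study chose this probe on a set of pigs that includes these 48, with FCR as the trait, so its line difference is not independent evidence.

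**Figure D2:**
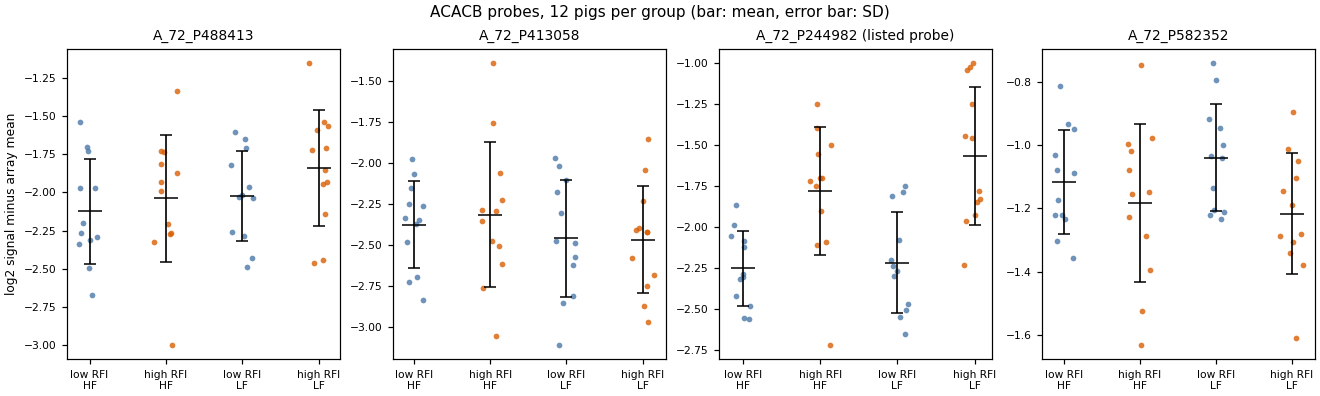
Level of the 4 ACACB probes (y axis, log2 signal minus the array mean; each panel has its own scale) in each pig of the 4 groups, with the group mean (bar) and SD (error bar), n = 12. In the panel of the listed probe the medians of the high RFI groups are -1.71 and -1.62, against -2.30 and -2.25 in the low RFI groups, while the groups overlap widely in the other 3 panels.

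The other 3 ACACB probes did not pass the test. Their line differences were 0.14 for A_72_P488413 (SE 0.10, adjusted p = 0.38), 0.03 for A_72_P413058 (SE 0.10, adjusted p = 0.89) and -0.12 for A_72_P582352 (SE 0.06, adjusted p = 0.14). The per-pig difference between the listed probe and each of the others was itself compared between the lines, in two-sided permutation tests of the line labels within diets that were run for all 54 pairs of probes of 1 gene or of isoforms of 1 protein and adjusted over them. The line difference of A_72_P488413 minus that of the listed probe was -0.43 (95% confidence interval -0.63 to -0.22, adjusted permutation p = 0.0012). For A_72_P413058 minus the listed probe it was -0.54 (-0.76 to -0.32, adjusted p = 0.00054), and for the listed probe minus A_72_P582352 it was 0.68 (0.48 to 0.89, adjusted p = 0.00054). These tests were added after the line differences had been seen, and 11 of the 54 pairs passed. The study had chosen the listed probe on these pigs.

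Across pigs, however, the ACACB probes moved together. After the group means were removed, the listed probe and A_72_P488413 had a Pearson r of 0.52 and a Spearman rho of 0.44 over the 48 pigs (adjusted permutation p = 0.00061 and 0.0033). Without the 2 pigs farthest from the median of A_72_P488413, r was 0.40. Here and below, the 2 farthest pigs of a pair were picked on 1 of its probes only. Pigs outlying on the other probe were kept. The correlation of the listed probe with A_72_P413058 was 0.42 (rho 0.39, adjusted permutation p = 0.0069 and 0.012, r of 0.31 without the 2 farthest pigs). The correlation with A_72_P582352 was 0.27 and did not pass (rho 0.17, adjusted permutation p = 0.10 and 0.30). Among all 42124 other tested probes, A_72_P488413 had the second highest correlation with the listed probe, A_72_P413058 ranked 101 and A_72_P582352 ranked 1484. Among the probes of other named genes most like the listed probe, by Pearson r over the 48 pigs with group means removed, were those of CTDSP2 (0.51), ABCA5 (0.49), ART3 (0.49) and LPIN1 (0.48), given as a description. LPIN1, a phosphatidate phosphatase gene, had a line difference of -0.37 (adjusted p = 0.016), which is opposite in sign to the listed probe. High RFI pig 3 on the HF diet was the lowest pig of its group on all 4 ACACB probes. Without it the correlations among the 4 probes ranged from 0.13 to 0.55, and the line difference of the listed probe was 0.60.

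ACACA, the carboxylase of fatty acid synthesis, did not differ detectably between the lines on any of its 4 probes. The probe with the highest signal, A_72_P079111, ranged from -0.04 to 0.90 in low RFI and from 0.41 to 2.08 in high RFI pigs under the HF diet, and from 0.37 to 1.67 and from -0.02 to 1.64 on the LF diet. Its line difference was 0.10 (SE 0.12, 95% confidence interval -0.14 to 0.34, adjusted p = 0.62), and the groups overlapped. The other ACACA probes were dimmer, with 47, 21 and 14 of the 48 arrays well above background, and had differences from -0.03 to 0.08. All 6 pairs of ACACA probes correlated across pigs, with r from 0.60 to 0.80 and rho from 0.56 to 0.78 after removal of the group means (r of 0.55 to 0.76 without the 2 farthest pigs). Slides hold 8 arrays each, and with slide means removed as well r was 0.61 to 0.78 for these 6 pairs. In all, 19 of the 22 pairs of probes of a gene passed, and the same 19 passed with slide means removed and the residuals permuted within slides, a setting chosen after seeing the data. MLYCD was read by 1 probe, well above background on 41 arrays, which ran from -5.32 to -1.55 in low RFI and from -5.09 to -1.14 in high RFI pigs, with a difference of -0.08 (SE 0.30, 95% confidence interval -0.68 to 0.52, adjusted p = 0.88). That interval is too wide to tell a moderate rise from a moderate fall.

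The catalytic subunits of AMPK were each read by 1 probe. PRKAA2, the alpha subunit that predominates in skeletal muscle, ranged from 7.57 to 8.25 in low RFI pigs and from 7.51 to 8.29 in high RFI pigs, so that the lines covered nearly the same range. Its line difference was -0.01 (SE 0.05, 95% confidence interval -0.12 to 0.09, adjusted p = 0.88). A second spot with the same 60 bases, outside the naming rule, differed from it by 0.03 per pig in the median and had a line difference of -0.03. PRKAA1 ran from -2.63 to -1.59 in low RFI and from -2.42 to -1.69 in high RFI pigs and had a difference of 0.01 (SE 0.06, 95% confidence interval -0.12 to 0.13, adjusted p = 0.94).

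PRKAB1, the scaffold subunit beta-1, was higher in high RFI pigs on all 3 of its probes. At A_72_P237592 the HF diet gave levels of 1.30 to 1.63 (median 1.43) for low RFI and of 1.39 to 1.85 (median 1.59) for high RFI pigs. With the LF diet these were 1.28 to 1.65 (median 1.44) and 1.41 to 1.93 (median 1.64). In all, 20 of 24 high RFI pigs lay above the low RFI mean and 8 above the highest low RFI pig. The line difference was 0.15 (SE 0.04, adjusted p = 0.0063), or 1.11-fold, with a 95% confidence interval of 0.07 to 0.23. At O9999 the level ran from -0.12 to 0.39 in low RFI and from 0.07 to 0.67 in high RFI pigs, with 6 of 24 above the highest low RFI pig and a difference of 0.13 (SE 0.04, 95% confidence interval 0.04 to 0.21, adjusted p = 0.031). At A_72_P444265 it ran from -3.23 to -2.36 and from -3.12 to -2.22, with 3 of 24 above the highest low RFI pig and a difference of 0.23 (SE 0.07, 95% confidence interval 0.09 to 0.37, adjusted p = 0.018). Within the HF diet and within the LF diet none of the 3 passed the test (A_72_P444265 was called on the LF diet in 3 alternatives, namely only probes well above background on all arrays, the variance analysis of the methods and the fit on that diet alone), with differences of 0.10 to 0.14 and of 0.16 to 0.32. The 3 probes correlated with each other across pigs (r from 0.41 to 0.82, rho from 0.45 to 0.86, group means removed, and r from 0.41 to 0.79 without the 2 farthest pigs), and their line differences were not told apart from each other (adjusted p from 0.23 to 0.59 over the 3 pairs).

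The call at A_72_P444265 was lost with normexp background correction (0.06, adjusted p = 0.19), with the deposited table (0.09, adjusted p = 0.18) and without a filter on dim probes (0.23, adjusted p = 0.053). The difference at O9999 stayed between 0.12 and 0.14 in all alternatives run for it, and its call was lost without that filter, where more probes were tested (adjusted p = 0.098).

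PRKAB2, the beta-2 subunit, had differences of 0.07 (SE 0.07, adjusted p = 0.51) and -0.01 (SE 0.05, adjusted p = 0.95) at its 2 probes, A_72_P335488 and A_72_P412323, which correlated across pigs with r = 0.56 (rho 0.54, r of 0.47 without the 2 farthest pigs). A_72_P412323 ran from 5.0 to 5.50 in low RFI and from 4.78 to 5.51 in high RFI pigs, with a 95% confidence interval of -0.10 to 0.09 for its difference. Whether the line difference of PRKAB1 exceeded that of PRKAB2 was compared over the 6 pairs of their probes. In all 6 the PRKAB1 probe had the higher line difference, by 0.06 to 0.23, and only A_72_P444265 against A_72_P412323 passed the permutation test (0.23, 95% confidence interval 0.07 to 0.40, adjusted p = 0.035).

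PRKAG3, the gamma subunit expressed mainly in fast skeletal muscle fibres, was lower in high RFI pigs on 2 of its 3 probes. At O9535 the HF diet gave levels of 1.37 to 2.78 (median 1.83) for low RFI and of 1.29 to 1.96 (median 1.61) for high RFI pigs. With the LF diet these were 1.68 to 2.48 (median 2.14) and 1.16 to 1.99 (median 1.67). All 24 high RFI pigs lay below the mean of the low RFI pigs, and 4 of them below the lowest low RFI pig. Low RFI pigs on the HF diet were the most spread, with an SD of 0.49 against 0.21 in high RFI pigs on the same diet. The line difference was -0.40 (SE 0.09, 95% confidence interval -0.59 to -0.21, adjusted p = 0.0027), a signal of 0.757 times that of low RFI pigs. At A_72_P441803 the level ran from -2.92 to -1.60 in low RFI and from -2.94 to -2.01 in high RFI pigs. The line difference there was -0.29 (SE 0.09, 95% confidence interval -0.48 to -0.11, adjusted p = 0.022), with 20 of 24 high RFI pigs below the low RFI mean, and it was -0.17 with normexp background correction (adjusted p = 0.0089).

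**Figure D3:**
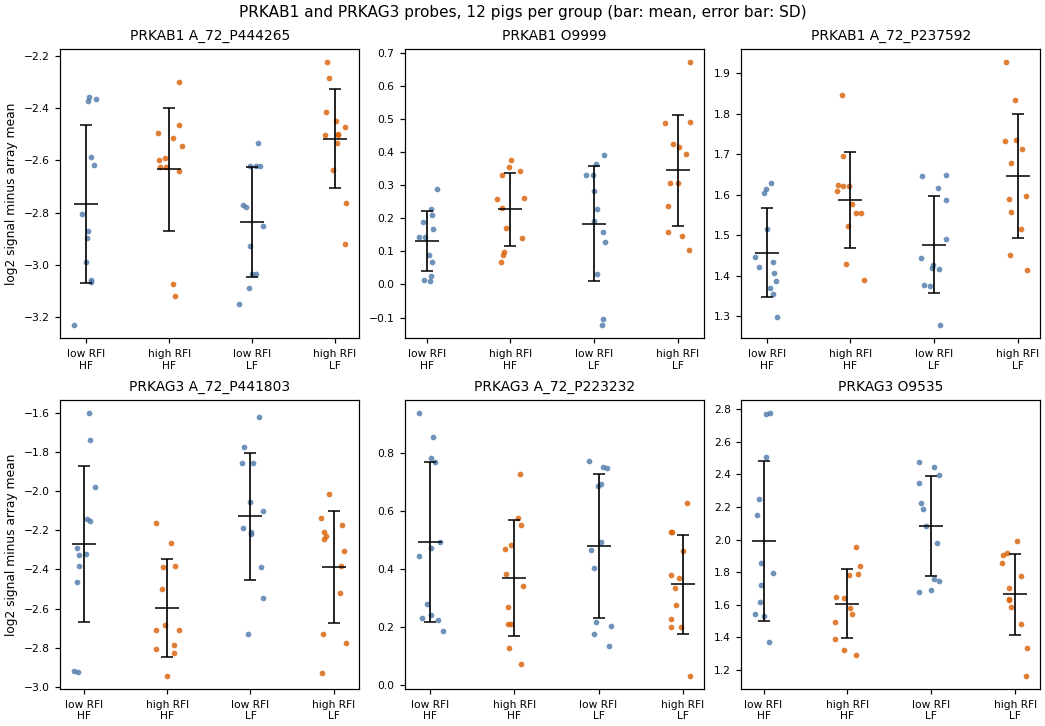
Level of the 3 PRKAB1 probes (upper row) and the 3 PRKAG3 probes (lower row) in each pig of the 4 groups (y axis, log2 signal minus the array mean; each panel has its own scale), with group mean (bar) and SD (error bar), n = 12. High RFI groups lie higher on the PRKAB1 probes, for example medians of 1.59 and 1.64 against 1.43 and 1.44 at A_72_P237592, and lower on PRKAG3 O9535, with medians of 1.61 and 1.67 against 1.83 and 2.14.

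The third PRKAG3 probe, A_72_P223232, had a difference of -0.13 (SE 0.07, adjusted p = 0.18) and was not called. It followed the other 2 probes closely across pigs (r of 0.61 and 0.81, rho of 0.62 and 0.83, adjusted permutation p = 2.4e-05 for both r, which were 0.58 and 0.79 without the 2 farthest pigs), yet its line difference was smaller in size than that of O9535 by 0.27 (95% confidence interval 0.16 to 0.39, adjusted permutation p = 0.00054). Within a diet no PRKAG3 probe passed the test, although O9535 differed by -0.38 on the HF diet (adjusted p = 0.067) and by -0.42 on the LF diet (adjusted p = 0.078). With slide as a block O9535 was called on both diets, and in the fit on the LF pigs alone it was called on that diet.

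Genes of fast fibres were lower in high RFI pigs as well. Of 52 tested probes for 9 fast fibre genes, 22 probes of 8 genes (42.3%) were called lower and none higher, against 9.85% of all probes called lower, for example MYH4 at O14581, a fast myosin heavy chain (-0.25, adjusted p = 0.00064), and MYLPF at A_72_P504419, a fast myosin light chain (-0.29, adjusted p = 9.2e-06). The mean level of the list ranged from 7.90 to 8.34 in low RFI and from 7.67 to 8.11 in high RFI pigs. Of 54 slow fibre probes 4 (7.41%) were called, all higher, of ATP2A2 and CASQ2, against 6.57% of all probes called higher. The part of fibre type in the PRKAG3 difference was not tested.

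PRKAG1, the gamma-1 subunit, had differences of 0.07, -0.03 and 0.00 at its 3 probes, none called (adjusted p from 0.447 to 0.996). The highest of them in level, A_72_P233587, ran from 4.24 to 4.54 in low RFI and from 4.17 to 4.70 in high RFI pigs, and the 95% confidence interval of its difference was -0.07 to 0.07 (SE 0.04). A second spot with the same 60 bases as A_72_P223782 had a difference of 0.09 and a median gap to it of 0.10 per pig. Against PRKAG3, the per-pig difference between the gamma subunits differed between the lines in 4 of 9 probe pairs, all with A_72_P441803 or O9535. The largest was O9535 against A_72_P223782, with the line difference of PRKAG1 above that of PRKAG3 by 0.47 (95% confidence interval 0.25 to 0.70, adjusted permutation p = 0.00097). O5825, well above background on 45 arrays, did not correlate with the other PRKAG1 probes (r of 0.08 and 0.06, rho of 0.04 and -0.01, adjusted permutation p = 0.59 and 0.69 for r), whereas those correlated with each other (r = 0.45, rho 0.49, adjusted permutation p = 0.0026 for r, which was 0.39 without the 2 farthest pigs).

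The arrays lay on 6 slides of 8, each with 2 pigs of every group, and within slides the directions of the 6 called probes were largely kept. Each slide holds a part of the same pigs, so this is not independent of the calls. The listed ACACB probe was higher in high RFI pigs on 6 of 6 slides (0.40 to 0.98), A_72_P444265 and A_72_P237592 of PRKAB1 on 6 of 6 (0.10 to 0.45 and 0.05 to 0.24) and O9999 on 5 of 6 (-0.03 to 0.31). The PRKAG3 probes A_72_P441803 (-0.69 to -0.01) and O9535 (-0.87 to -0.08) were lower on 6 of 6 slides, and the uncalled A_72_P223232 on 4 of 6 (-0.41 to 0.13). The size of the differences varied among slides, as O9535 differed by -0.32 over the slides of the first scan day and by -0.48 over those of the second.

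**Figure D4:**
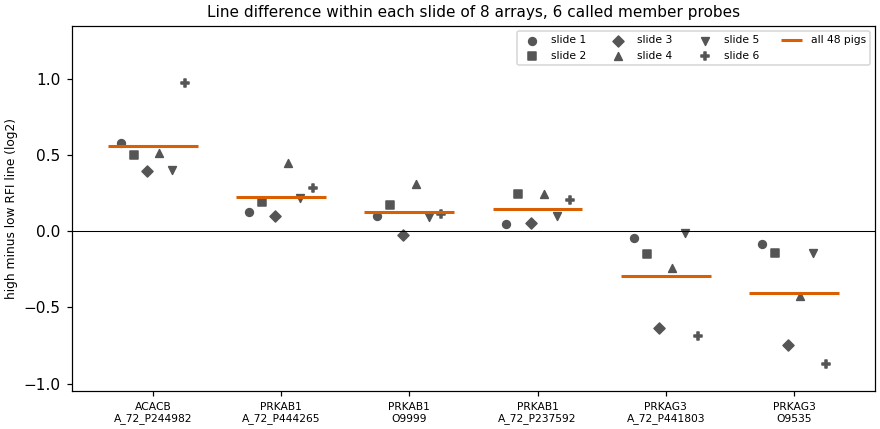
High minus low RFI difference (y axis, log2) of the 6 called probes within each of the 6 slides (symbols; 8 arrays, 2 pigs of each group) and over all 48 pigs (orange line). The values of the listed ACACB probe lie between 0.40 and 0.98 and the O9535 values of PRKAG3 between -0.87 and -0.08.

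Between the diets no member was called, in a comparison where 0.42% of all probes were, 177 in number. The smallest adjusted p among the 22 was 0.38, and 1 probe, O9999 of PRKAB1, had an unadjusted p below 0.05 (0.0498), with a difference of -0.09 (HF minus LF diet). ACACA at A_72_P079111 differed by -0.24 (HF minus LF diet, SE 0.12, unadjusted p = 0.050, adjusted p = 0.38). All 4 ACACA probes had lower means on the HF diet, by -0.28 to -0.06. The interaction between line and diet was not called for any member (adjusted p = 0.999 for all 22 in limma, no unadjusted p below 0.05), and for none of the 42125 probes, of which 1875 had an unadjusted p below 0.05. The listed ACACB probe had an interaction of -0.18 (difference on the HF diet minus that on the LF diet), with an unadjusted p of 0.36. ACACA at A_72_P079111 had the largest, 0.48 (unadjusted p = 0.052), from line differences of 0.33 on the HF and -0.14 on the LF diet.

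Around the kinase, the largest group of called probes belonged to 1 target. In 5 lists of genes of the pathway, 20 of 143 tested probes were called between the lines, or 14% against 16.4% of all probes, and none between the diets in limma (8 with an unadjusted p below 0.05). These lists held 81 genes, of which 57 had a tested probe. Upstream of AMPK, 1 probe of 11 was higher and 1 lower. CAB39, the scaffold of the LKB1 complex that phosphorylates AMPK, was lower by -0.26 (adjusted p = 0.0050, 3 of 24 high RFI pigs above the low RFI mean). CAMKK1, a calcium-dependent kinase related to an AMPK kinase, was higher by 0.30 (adjusted p = 0.020, 21 of 24 above). STK11, the LKB1 kinase itself, differed by 0.02 (adjusted p = 0.87). Of 26 probes for proteins that bind or regulate AMPK, 1 was called, of the adiponectin receptor ADIPOR1 (O10680, -0.11, adjusted p = 0.021), and its other 2 probes, not called, differed by -0.09 and -0.12.

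Among substrates and targets of AMPK, 15 of 54 probes (27.8%) were called, all higher, against 6.57% of all probes called higher. They came from 4 of 17 tested genes, and 11 of the 15 probes read TXNIP. TXNIP, which restrains glucose uptake and is marked for degradation by AMPK, was called on 11 of 11 probes, with differences from 0.49 to 0.64. It differed by 0.71 to 0.96 on the HF diet, with 9 of 11 probes called, and by 0.25 to 0.34 on the LF diet, with none called. The interaction did not pass for TXNIP (unadjusted p from 0.064 to 0.20 over the 11 probes), so the diets were not shown to differ. GFPT1, the entry enzyme of the hexosamine pathway, was called on 1 of 4 probes (A_72_P380828, 0.25, adjusted p = 0.016). Over its 4 probes the differences ran from -0.07 to 0.25, with adjusted p up to 0.63. LIPE, the hormone-sensitive lipase of fat cells and muscle, was called on 2 of 4 probes (0.33 and 0.31), while its other 2, not called, differed by 0.21 (adjusted p = 0.059) and -0.10 (adjusted p = 0.087), and SLC2A4, the insulin-responsive glucose transporter, on 1 of 5, a dim probe well above background on 14 arrays (A_72_P413673, 0.59, adjusted p = 0.041). LIPE and SLC2A4 were named after their values had been seen, as were the uncalled pathway genes and the marker genes named here.

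**Figure D5:**
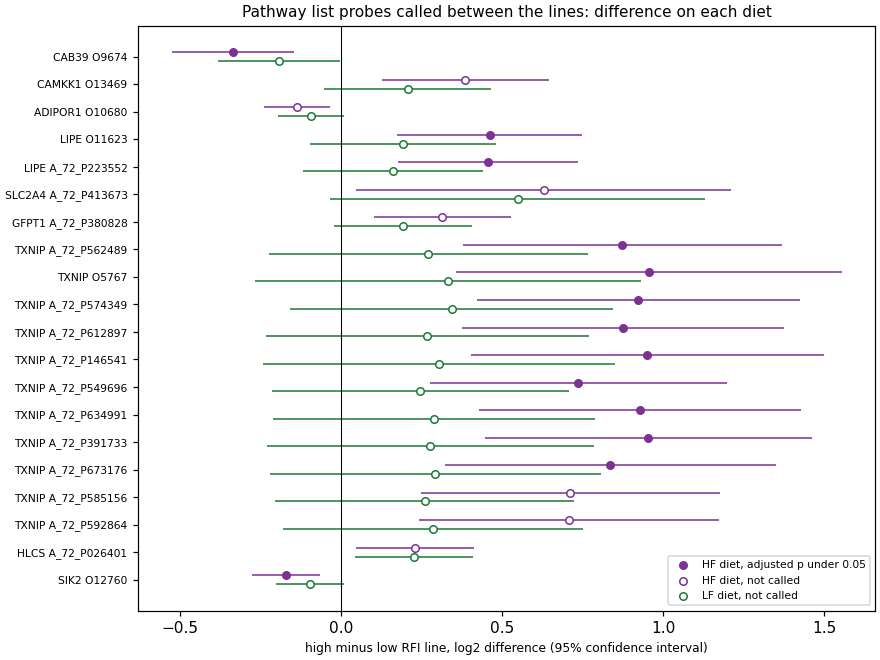
High minus low RFI difference (x axis, log2, with 95% confidence interval) on the HF diet (purple) and the LF diet (green) for the 20 pathway probes called between the lines. TXNIP lies at 0.71 to 0.96 on the HF diet and at 0.25 to 0.34 on the LF diet; filled points have an adjusted p below 0.05 within that diet.

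Of the partners of the carboxylases, 1 of 42 probes was called. HLCS, the ligase that attaches biotin to the carboxylases, was higher by 0.23 (adjusted p = 0.012, 21 of 24 high RFI pigs above the low RFI mean), with 0.23 on each diet. The 5 probes of CPT1B, the muscle carnitine palmitoyltransferase that malonyl-CoA inhibits, differed by -0.05 to 0.00 (adjusted p from 0.83 to 0.99), and the 4 probes of FASN, the fatty acid synthase, by 0.06 to 0.31 (adjusted p from 0.30 to 0.79). Among AMPK-related kinases 1 of 10 probes was called, of SIK2 (-0.13, adjusted p = 0.0099).

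Markers of muscle and of other cells are given beside the shares of all probes, 6.57% called higher and 9.85% lower. All 12 skeletal muscle marker genes were detected, and 32 of their 94 probes (34%) were called lower in high RFI pigs. The 32 came from MYL1, CKM, MYH4, MYLPF, TNNT3, TNNI2 and MYH2. The called MYH2, MYH4, MYLPF, TNNT3 and TNNI2 probes were also counted above as fast fibre probes. None was called of ACTA1 (17 probes), MYH7 (9), MYH1 (8), DES (4) or MB (1). Of 49 adipocyte probes 8 (16.3%) were called higher, all of the fatty acid binding protein gene FABP4 (8 of 8 probes, 0.30 to 0.61), and none of the other 8 tested genes had a called probe. The mean level of the adipocyte list ranged from -1.93 to -0.09 in low RFI and from -1.59 to 0.19 in high RFI pigs. Of 12 macrophage probes 4 (33.3%) were called, all higher, of CD163, CSF1R and CD14, and that list ranged from -3.00 to -1.32 and from -2.33 to -0.33. Of 26 fibroblast probes 4 (15.4%) were called higher, of COL1A1 and COL1A2, and of 16 endothelial probes 2 (12.5%), of TEK. No probe of the other genes of either list was called, and 8 of the 26 and 8 of the 16 were lower in high RFI pigs. The mean level of the fibroblast list differed by 0.17 and that of the endothelial list by 0.005 (high minus low RFI pigs). Several of the marker probes read 1 gene, so the shares were not tested. The part of these cells in the differences of the listed ACACB probe, PRKAB1, TXNIP or LIPE was not tested.

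Over all arrays the median processed signal ranged from 52.8 to 107.9 and the share of probes well above background from 59.2% to 74.2%, and no member spot was saturated. The SE of a line difference was 0.08 in the median over the 22 probes, from 0.036 at A_72_P233587 of PRKAG1 to 0.297 at MLYCD, with 48 pigs behind each.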

How the data were processed

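RNA of the longissimus muscle of 48 pigs was hybridised on Agilent one-colour arrays with 60306 spots that are not controls. The authors deposited scanner intensities, background-subtracted by Agilent Feature Extraction 10.7.3.1, and a table of log2 values for 34472 probes, which equals the log2 of the median spot signal with each array's median at 0 and includes 18 of the 22 probes; it was an alternative here. Per the labels the authors used R 2.10.0.

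Here outlier spots were set missing (169 values over all tested probes, none in the 22), spots of one probe were averaged (60305 probes), and the log2 of the processed intensities had the array mean subtracted, taken over the 42125 tested probes, those flagged well above background on 12 or more arrays. The 4 groups were fitted with limma 3.58.1 in R 4.3.3 with Benjamini-Hochberg adjustment over all tested probes. Permutation tests used 100000 permutations, with 1e-05 as the smallest possible p. The fit was tested on simulated data for the line comparison (41957 probes, 200 changed) and recovered 29.0%, 78.5% and 97.5% of differences of 0.25, 0.5 and 1 on the log2 scale. Of the probes called there, 6.45%, 4.85% and 4.41% were not among the changed ones. The simulated noise was independent between probes and held no slide effects. Only 200 probes were changed, against 6919 called between the lines here, so these shares do not give the power of this comparison.

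Members, gene lists and tests were chosen with earlier results of these data known. Levels, differences, errors and intervals are given for each member probe called in any comparison, the listed ACACB probe and, for genes without a called probe, the probe with the highest mean level. From each pathway list up to 4 called probes with the largest t statistic are named. The differences between pairs of probes, the correlations with slide means removed and the fit without 1 pig were added after the values had been seen. Slides and scan days hold all groups equally. Other pigs of the study, its feed efficiency values and its qPCR were not analysed here. One gene among those most like the listed ACACB probe and 1 probe sequence are not reported here.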

Additional observations from a re-analysis of the deposited data

How the results depend on the processing

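The alternatives were other scaling (75th percentile, quantile), normexp background correction, no filter on dim probes, only probes well above background on all arrays, outlier spots kept, slide or scan day as a block, the deposited table, robust trend moderation, 3 fits without 1 array each, the variance analysis of the methods and, within diets, a fit on that diet alone. The listed ACACB probe was called between the lines in all of them, at 0.30 to 0.60, and lowest with normexp. A_72_P237592 of PRKAB1 and A_72_P441803 and O9535 of PRKAG3 also kept direction and call, A_72_P441803 at -0.31 to -0.17. Between 4 and 6 member probes were called. Without the filter 4 of 22 were called, against 6.42% of all tested probes. With the deposited table it was 4 of 18 (17.8% of all) and with normexp 5 of 22 (13.5%). With only probes well above background on all arrays 6 of 17 were called (18.9% of all). In the other alternatives 6 of 22 were called, against 14.9% to 20% of all tested probes.

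On the HF diet 0 member probes were called with normexp, without the filter, with the deposited table, without the brightest array and in the variance analysis of the methods (adjusted p of the listed probe 0.082, 0.084, 0.075, 0.050 and 0.051), and 2 with slide as a block, where O9535 of PRKAG3 was added. On the LF diet 2 were called with only probes well above background on all arrays, with slide as a block and in the variance analysis, and 3 in the fit on that diet alone, the added probes being A_72_P444265, O9535, A_72_P444265 and, in the last, both. The share of all probes called within a diet in each alternative is not given here, so these counts cannot be set against it. Without the filter 13 pathway probes were called between the lines instead of 20, where 6.42% of all tested probes were called instead of 16.4%. The count of agreeing probe pairs was 19 of 22 with mean centring, with quantile normalization and with slide means removed.

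Line differences in the alternatives were looked at for the called probes and, for genes without a called probe, for the probe with the highest mean level. Among these, only values near 0 and not called changed sign. The signs of the other member probes were not followed through the alternatives. PRKAB2 at A_72_P412323 went to 0.0018 with 75th percentile scaling, 0.0274 with quantile normalization, 0.0242 with normexp, 8.8e-05 without the filter, 0.0071 with only probes well above background on all arrays and 0.0053 without the brightest array. PRKAA1 at O9764 went to -0.0061, -0.0161 and -0.0130 with quantile normalization, normexp and the deposited table. PRKAA2 at A_72_P035741 went to 0.0886 and 0.0270 with quantile normalization and normexp. PRKAG1 at A_72_P233587 went to -0.0142 without the array with the lowest share of probes well above background. The cause of these shifts was not tested. No paired analysis was possible because the labels give all samples the same replicate number, so that no number pairs the pigs; slide and scan day were run as blocks instead.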

Other observations

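The array holds 1 probe, A_72_P360158, described as part of the AMPK subunit gamma-2 but without the symbol PRKAG2, so that it stood outside the naming rule. It was well above background on 48 arrays and was lower in high RFI pigs by -0.22 (SE 0.07, limma adjusted p = 0.027). By diet it was -0.35 (HF, adjusted p = 0.029) and -0.09 (LF, adjusted p = 0.71), and the interaction was not called (unadjusted p = 0.072, adjusted p = 0.999). Whether it reads PRKAG2 was not tested.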
